A study of Bos grunniens with 36 samples.

Results

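The genes described here are the amino acid transporters of the solute carrier (SLC) families SLC1A, SLC3A, SLC7A, SLC36A, SLC38A and SLC43A, taken by gene symbol from a study of the yak mammary gland around calving. By symbol, 38 such genes lie on the array, and 29 of them are in the deposited table of 20110 genes and unnamed transcripts. One of the 29, SLC7A6OS, is a gene on the opposite strand beside SLC7A6 and is not a transporter, and SLC43A3 is known in human cells as a carrier of purine bases rather than of amino acids. Both were kept because the symbol alone decided membership.

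Milk protein is built in the mammary epithelium from amino acids drawn out of the blood, so the carriers in the cell membrane set which amino acids a secreting cell can obtain. The SLC1A members carry acidic or small neutral amino acids. The SLC7A members carry mainly cationic or neutral ones, most of them as a light chain bound to a heavy chain of the SLC3A family. The SLC38A members carry glutamine and other neutral amino acids with sodium. SLC36A2 moves small amino acids with protons, and SLC43A1 and SLC43A2 let large neutral amino acids through without ion coupling. Some carriers exchange one amino acid for another, so a cell needs several kinds at once. In mouse and human cells SLC38A2 and SLC7A1 are known to be induced when amino acids run short, and SLC38A9 reports arginine in the lysosome to the growth kinase complex mTORC1.

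Biopsies of mammary parenchyma were taken from the left and the right rear gland in alternation in 4 female yaks. The groups after calving are days +1, +15, +30, +60, +120, +180 and +240, with 28 arrays in all, and the groups before calving are days -30 and -15, with 8 arrays. Each day has 1 array from each of the same 4 animals, called animals 1 to 4 after the sample titles. No animal age is given in the sources used here, no treatment separates the groups, and the side biopsied is not given array by array.

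Levels are log2 values relative to the 75th percentile of each array, so that 0 is the level of that percentile and a difference of 1 is a doubling. The array is a cattle design, so a level also depends on how well the yak RNA pairs with a cattle probe, and levels of different genes were not compared. All 36 columns of the table match 1 scanner file each, but every such file is deposited under another sample, with the same day in 9 cases and another day in 27. The days used here are those of the samples that name the columns of the table, and results with the days of the scanner files are given beside the main ones. By the table's record each of the 9 slides holds the 4 arrays of 1 day, so that day and slide cannot be told apart for a single day. The 75th percentile of the raw signal, the brightness of an array, had a lowest, median and highest value of 1029, 2099 and 6450 intensity units after calving, against 4853, 5294 and 5752 before calving. Between 68.6% and 89.3% of the spots of an array were well above background, and 0 spots were saturated. All 8 markers of luminal epithelium, the cells that make milk (EPCAM and KRT8 among them), were above background on all 28 and all 8 arrays, as the tissue label says, and markers of adipocytes, endothelium, fibroblasts and leukocytes were measured on the same arrays. In such bulk tissue, fewer cells of a type and less RNA per cell cannot be told apart.

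The probes of 2 genes whose probes all rose after calving are shown because their 60 bases are spread over a longer stretch of the genome, as in a probe that crosses a splice junction and pairs with spliced RNA. Coordinates are those of the file headers on the cattle assembly UMD 3.1, and the letters are given 5′ to 3′ in lower case with no part marked. The SLC7A4 probe lies on the minus strand at chr17:74366506-74366682, spans 177 bases and has 55.0% GC. The SLC38A3 probe shown is the second, dimmer probe of that gene, on the minus strand at chr22:50706771-50706999, spans 229 bases and has 45.0% GC.
SLC7A4: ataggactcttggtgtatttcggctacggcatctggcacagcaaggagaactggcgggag
SLC38A3: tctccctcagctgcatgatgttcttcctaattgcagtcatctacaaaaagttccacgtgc

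After calving 9 of the 29 genes rose relative to the days before calving and 0 fell. They were the neutral exchangers SLC1A4 and SLC1A5, the cationic carrier SLC7A1, its relative SLC7A4, the small neutral carrier SLC7A10, the proline and tryptophan carrier SLC36A4, the sodium-coupled SLC38A2 and SLC38A3, and the large neutral carrier SLC43A1. The test was limma's moderated test of the mean of the 7 days after calving against the mean of the 2 days before, adjusted over all 20110 genes. In that comparison 36% of all genes were called, 16.8% as higher and 19.2% as lower, beside 31% and 0% of the transporters. The median difference was 0.08 over the 29 genes, against -0.04 over all genes, and 17 of the 29 estimates lay above 0. With the slide as a random block, 4 of the 9 (SLC1A5, SLC7A10, SLC7A1 and SLC38A2) kept an adjusted p under 0.05, where 5.78% of all genes were called as higher and 7.72% as lower. With the days of the scanner files, 9 genes were called on the same arrays, 8 of them the same genes, where 12.6% of all genes were called as higher. Only the arrays of animals 1 to 3 at days -30 and +1 change stage by that record. Most arrays keep their stage, so this is not a separate test. With array brightness as a covariate, 6 of the 29 genes were called and 0 of these were among the 9, and the differences of SLC36A4, SLC38A3, SLC43A1 and SLC7A4 turned below 0.

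**Figure D1:**
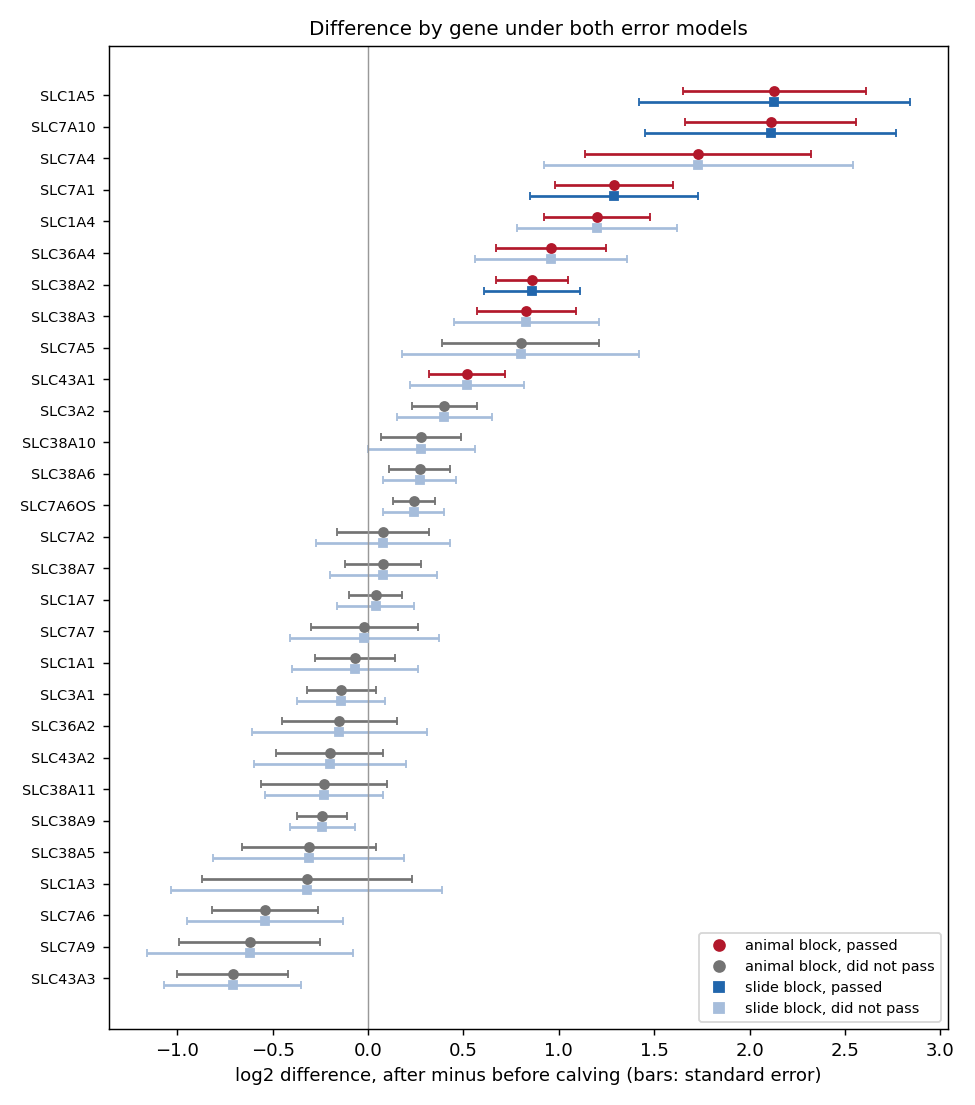
Difference of the log2 level after minus before calving for the 29 genes, with the standard error as bars, from the fit with the animal as random block (circles) and with the slide as random block (squares). Filled red and dark blue symbols passed at an adjusted p under 0.05: 9 genes with the animal block and 4 with the slide block, all on the positive side.

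Both neutral exchangers of the SLC1A family rose. SLC1A5, which trades glutamine for other neutral amino acids, had a lowest, median and highest level of -1.97, 1.96 and 3.20 on the 28 arrays after calving, against -1.32, -0.69 and 0.20 on the 8 arrays before it. The groups overlapped, with 21 of the 28 arrays after calving above the highest array before it. The difference was 2.13 ± 0.48 (SE), a 4.38-fold rise (95% interval 2.28 to 8.40, adjusted p = 0.00111), and it was positive in 4 of 4 animals. SLC1A4, which carries alanine, serine and cysteine, had -1.24, 0.84 and 2.64 after calving, against -0.93, -0.34 and 0.09 before calving. Its difference was 1.20 ± 0.28 (adjusted p = 0.00146), with 23 of 28 arrays above the highest array before calving and 4 of 4 animals higher. All 3 SLC1A4 probes gave the same direction, at 1.20, 1.01 and 1.10, each with an adjusted p under 0.05 over all probes. The SLC1A5 probe lies on chromosome 18 at 54302397 to 54302456 and the SLC1A4 probe in use on chromosome 11 at 63367514 to 63367573, and the sources used here do not annotate the exon or untranslated region of either.

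The glutamate carriers of the same family did not pass between the stages. SLC1A1, the carrier of glutamate and aspartate found in many epithelia, differed by -0.07 ± 0.21 between the stages, yet passed the F test over the 9 days (adjusted p = 0.02). Its day means, in order from day -30 to day +240, were 1.52, 1.52, 1.36, 0.51, 1.40, 1.13, 1.71, 2.34 and 1.73. The lowest mean was at day +15 and the highest at day +180, and neither day passed against day -30. SLC1A3, known as a glutamate carrier of glia, differed by -0.32 ± 0.55, and SLC1A7, known from the retina, by 0.04 ± 0.14. SLC1A3 varied widely between animals, from -7.07 to -0.38 after calving, against -4.61 to -2.10 before it.

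Among the SLC7A genes, 3 of 9 rose after calving. SLC7A10, whose protein carries glycine, alanine and serine, had a lowest, median and highest level of -6.38, -2.98 and 0.03 after calving, against -5.71, -5.03 and -4.28 before calving. Of the 28 arrays after calving, 25 lay above the highest array before it. The difference was 2.11 ± 0.45, or 4.33-fold (95% interval 2.36 to 7.96, adjusted p = 0.000624), and 4 of 4 animals were higher. SLC7A10 also marks the surface of white fat cells in mouse and human, and of the 7 adipocyte genes measured 2 rose (CIDEA by 2.46 and LPL by 3.08) and 1 fell (PLIN4, -0.52), while ADIPOQ differed by -0.83 (adjusted p = 0.292) and PLIN1 by -0.02 (adjusted p = 0.987). The mean level of that list ran from -2.02 to 2.48 after calving, against -1.23 to 0.76 before it, and no adipocyte marker was at background on all arrays of a stage. The part of fat cells in the SLC7A10 difference was not tested. The probe lies on chromosome 18 at 43847475 to 43847534, and its neighbour SLC7A9, on the same strand at 43436167 to 43436226, gave -0.62 ± 0.37 without passing.

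SLC7A4 resembles the cationic carriers in sequence, but transport by the human protein has not been shown. Its level had a lowest, median and highest value of -1.5, 2.69 and 4.04 after calving, against -0.51, 0.55 and 1.15 before calving. The difference was 1.73 ± 0.59, or 3.31-fold (95% interval 1.48 to 7.41, adjusted p = 0.0234), with 4 of 4 animals higher. The second SLC7A4 probe gave 1.98 (adjusted p = 0.00636 over all probes). The groups overlapped, with 20 of 28 arrays after calving above the highest array before it. The other 8 included 3 arrays of day +1, at 0.43, 0.46 and 0.50.

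SLC7A1, the main carrier of arginine and lysine into most cells, had -7.21, -5.70 and -3.94 after calving, against -7.92, -6.54 and -6.12 before calving. The difference was 1.29 ± 0.31, or 2.44-fold (95% interval 1.61 to 3.70, adjusted p = 0.00188), with 4 of 4 animals higher. The signal was dim, being above background on 15 of 28 arrays after calving and on 4 of 8 before it, so that its low values are imprecise. Its probe lies on chromosome 12 at 31016683 to 31016742. The other cationic carrier, SLC7A2, was above background on 12 of 28 arrays after calving and 6 of 8 before it, and differed by 0.08 ± 0.24 (adjusted p = 0.821).

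SLC7A5, the carrier of leucine and other large essential amino acids, had a lowest, median and highest level of -1.11, 1.87 and 3.66 after calving, against 0.28, 0.68 and 1.23 before calving. Its difference of 0.80 ± 0.41 did not pass (adjusted p = 0.131), with 3 of 4 animals higher. SLC3A2, the heavy chain that SLC7A5 and several other light chains need to reach the membrane, differed by 0.40 ± 0.17 (adjusted p = 0.0719). With the days of the scanner files the SLC7A5 difference was 1.32 and passed (adjusted p = 0.0284).

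The remaining chains of this kind did not pass between the stages. SLC7A6 and SLC7A7, which exchange cationic for neutral amino acids, differed by -0.54 ± 0.28 and -0.02 ± 0.28. Another SLC7A6 probe, with a mean level of -5.66 against -5.65 for the probe in use, gave 0.27 (adjusted p = 0.314 over all probes). The remaining SLC7A6 probe gave -0.55 (adjusted p = 0.161 over all probes). SLC7A9, known from kidney and gut as the cystine carrier that pairs with SLC3A1, differed by -0.62 ± 0.37, and SLC3A1 by -0.14 ± 0.18. A second SLC3A1 probe gave -0.62 (adjusted p = 0.0101 over all probes), so that the probes of this gene differ in their call. SLC7A6OS differed by 0.24 ± 0.11 (adjusted p = 0.0956).

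Of the 8 sodium-coupled SLC38A genes, 2 rose. SLC38A2, which carries small neutral amino acids into the cell, had a lowest, median and highest level of -0.11, 1.22 and 2.72 after calving, against -0.03, 0.32 and 0.67 before calving. The difference was 0.86 ± 0.19, or 1.82-fold (95% interval 1.40 to 2.36, adjusted p = 0.00104), with 24 of 28 arrays above the highest array before calving and 4 of 4 animals higher. All 5 of its probes gave positive differences, from 0.56 to 0.86, and 2 of them passed. SLC38A3, which moves glutamine and histidine with sodium against protons, had -0.18, 1.37 and 2.30 after calving, against 0.04, 0.34 and 0.70 before calving. Its difference was 0.83 ± 0.26, or 1.77-fold (adjusted p = 0.015). The second SLC38A3 probe, printed above, gave 3.49 ± 0.82 (adjusted p = 0.00166 over all probes) and was above background on 29 of 36 arrays, so that both probes rose but by different amounts.

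The other 6 SLC38A genes did not pass. SLC38A9, the lysosomal arginine sensor, was lower in 4 of 4 animals at -0.24 ± 0.13 (adjusted p = 0.141). SLC38A7, which lets glutamine out of lysosomes, differed by 0.08 ± 0.20, SLC38A6 by 0.27 ± 0.16, SLC38A10 by 0.28 ± 0.21, SLC38A11 by -0.23 ± 0.33, and SLC38A5, a glutamine carrier like SLC38A3, by -0.31 ± 0.35. The SLC38A5 probe was above background on 13 of 28 arrays after calving and 8 of 8 before it. A second SLC38A10 probe gave -0.37 (adjusted p = 6e-04 over all probes), the opposite direction to the probe in use.

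SLC36A4, a carrier of proline and tryptophan, had a lowest, median and highest level of -2.99, -1.32 and -0.03 after calving, against -2.83, -2.38 and -2.07 before calving. Its difference was 0.96 ± 0.29, or 1.95-fold (95% interval 1.32 to 2.89, adjusted p = 0.0104), with 4 of 4 animals higher. SLC36A2, a carrier of glycine and proline, was above background on 11 of 28 arrays after calving and 7 of 8 before it, and differed by -0.15 ± 0.30. SLC43A1 had 0.12, 1.47 and 2.60 after calving, against 0.36, 0.96 and 1.34 before calving. The SLC43A1 difference was the smallest of the 9, at 0.52 ± 0.20 or 1.44-fold (adjusted p = 0.0398), and it passed in only 4 of 14 alternative settings. SLC43A2 differed by -0.20 ± 0.28, and SLC43A3 was lower in 4 of 4 animals at -0.71 ± 0.29 without passing (adjusted p = 0.0557).

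Leaving out animal 2 ended the calls of SLC36A4 (adjusted p = 0.0922), SLC38A3 (adjusted p = 0.0838) and SLC7A4 (adjusted p = 0.138), and leaving out animal 3 ended those of SLC38A3 (adjusted p = 0.0529) and SLC7A4 (adjusted p = 0.079). SLC43A1 lost its call without any 1 animal, with adjusted p-values of 0.0594, 0.116, 0.119 and 0.0972 without animals 1, 2, 3 and 4.

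The days differed in how many transporters stood apart from day -30. Day -15 had 0 called (0 with an unadjusted p under 0.05), where 0.00497% of all genes were called. Day +1 had 0 called (1 with an unadjusted p under 0.05), where 6.24% of all genes were called, 1.94% as higher and 4.30% as lower. Day +15 had 5 higher and 0 lower, where 10.2% of all genes were higher and 7.71% lower. Day +30 again had 0 (2 unadjusted), with 6.37% of all genes called, 2.12% as higher and 4.26% as lower. Day +60 had the most, with 9 higher and 1 lower, where 12.6% of all genes were higher and 16.7% lower. Day +120 had 0 (4 unadjusted), with 3.76% of all genes called, 1.06% as higher and 2.70% as lower. Day +180 had 2 higher and 2 lower (6.67% and 10.8% of all genes), and day +240 had 2 higher and 0 lower (6.86% and 7.08% of all genes). These comparisons share the 4 arrays of day -30, and whether one day differs from another was not tested. By the F test over the 9 days 12 of 29 genes passed, where 42.3% of all genes passed. They were SLC1A1, SLC1A4, SLC1A5, SLC7A1, SLC7A5, SLC7A6, SLC7A10, SLC36A2, SLC38A2, SLC38A3, SLC43A1 and SLC43A3, with adjusted p-values from 0.00265 for SLC1A4 to 0.0458 for SLC43A3. The count was 0 without animal 2, 4 without animal 1 or animal 3, 6 with another background correction (normexp) and 7 with the days of the scanner files.

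**Figure D2:**
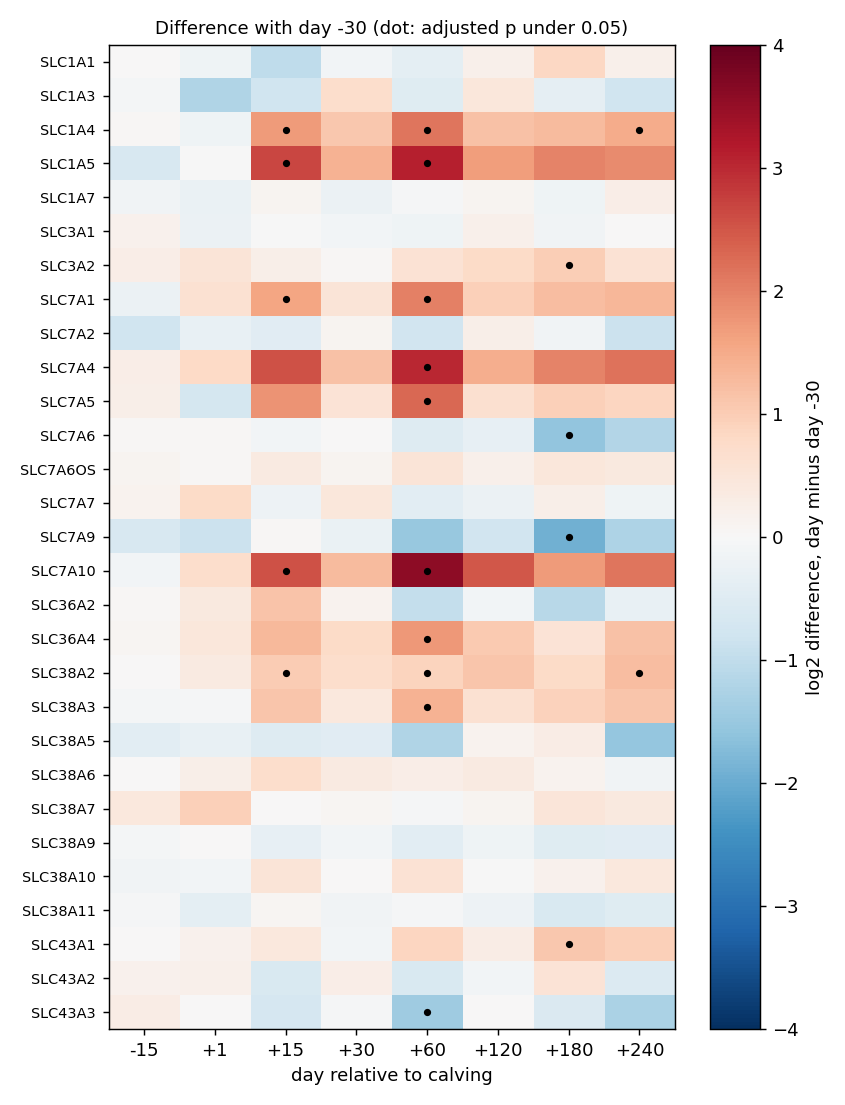
Difference of the log2 level of each of 8 days minus day -30 (columns, days relative to calving) for the 29 genes (rows, by family), in red where the day is higher and in blue where it is lower, with dots at an adjusted p under 0.05. Day +60 holds 10 dots, day +15 holds 5, day +180 holds 4 and day +240 holds 2.

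Day +60 had the most calls. SLC7A10 had levels of 0.03, -2.16, -1.48 and -1.93 in animals 1 to 4 at day +60, against -4.28, -5.18, -4.65 and -5.71 at day -30. The groups did not overlap, and the difference was 3.57 ± 0.79 (adjusted p = 0.0017). SLC1A5 had 2.37, 3.12, 2.77 and 3.09 at day +60, against 0.06, -0.97, 0.20 and -0.39 at day -30. Here too every array of day +60 was above every array of day -30, with a difference of 3.11 ± 0.85 (adjusted p = 0.00767).

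SLC7A4 had levels of 3.82, 2.67, 2.71 and 3.83 in animals 1 to 4 at day +60, against 0.88, -0.51, 1.15 and -0.48 at day -30, a difference of 3.00 ± 1.05 (adjusted p = 0.0318). SLC7A5, which had not passed between the stages, averaged 2.99 ± 0.587 at day +60 and 0.69 ± 0.4 at day -30 (SD, n = 4 arrays each). Its difference of 2.30 ± 0.73 passed (limma adjusted p = 0.0197), and all 3 of its probes passed, at 2.30, 2.54 and 1.77. With the days of the scanner files the SLC7A4 difference was 2.70 (adjusted p = 0.0912) and the SLC7A5 difference 1.55 (adjusted p = 0.187), and neither passed. On those days SLC7A1 (1.46, adjusted p = 0.108), SLC38A2 (1.04, adjusted p = 0.054), SLC38A3 (1.32, adjusted p = 0.0689) and SLC43A3 (-0.44, adjusted p = 0.659) did not pass at day +60 either, and SLC1A4, SLC1A5, SLC7A10 and SLC36A4 did.

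The other carriers higher at day +60 had smaller differences. SLC1A4 had levels of 1.20, 2.03, 1.78 and 1.91 at day +60, against 0.09, -0.93, -0.28 and -0.49 at day -30, and differed by 2.13 ± 0.49 (adjusted p = 0.00239). SLC7A1 had -4.11, -3.94, -5.90 and -4.98 at day +60, against -6.49, -7.84, -6.48 and -6.12 at day -30, and differed by 2.00 ± 0.54 (adjusted p = 0.00752). In both genes the arrays of day +60 all lay above those of day -30.

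SLC36A4 had -1.35, -0.72, -0.54 and -0.31 at day +60, against -2.07, -2.83, -2.19 and -2.75 at day -30, and differed by 1.73 (adjusted p = 0.0127). SLC38A3 had 1.82, 1.36, 1.64 and 2.30 at day +60, against 0.57, 0.29, 0.70 and 0.04 at day -30, and differed by 1.38 (adjusted p = 0.0262). SLC38A2 had 0.95, 1.11, 1.69 and 1.24 at day +60, against -0.03, 0.67, 0.26 and 0.51 at day -30, and differed by 0.90 (adjusted p = 0.0458). All 5 SLC38A2 probes gave positive differences at day +60, from 0.79 to 1.03, but only 1, the probe in use, passed. The days did not overlap in any of these 3 carriers, which were chosen by their call in this same comparison. The share of all genes whose days separate in this way was not counted, here or for the other transporters and days. SLC43A3 was the 1 gene lower at day +60, with a mean of -4.83 ± 0.190, against -3.42 ± 0.577 at day -30 (SD, n = 4 arrays each), a difference of -1.41 that turned to 0.27 with normexp.

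At day +60 the calls of SLC1A4 and SLC7A10 held without any 1 animal and with the days of the scanner files, where they were 1.56 (adjusted p = 0.0456) and 3.03 (adjusted p = 0.0238). Without animal 2, SLC1A5 (2.79, adjusted p = 0.0581), SLC7A1 (1.37, adjusted p = 0.139), SLC7A5 (1.99, adjusted p = 0.112) and SLC36A4 (1.61, adjusted p = 0.0671) did not pass, and SLC36A4 did not without animal 4 either (adjusted p = 0.0544). SLC7A4, SLC38A2, SLC38A3 and SLC43A3 lost their calls without any 1 of the animals, in fits with 3 animals.

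At day +15, 5 of these genes passed, all as higher. SLC7A4 (2.55), SLC7A5 (1.79), SLC36A4 (1.30), SLC38A3 (1.12) and SLC43A3 (-0.67) kept their direction without passing. SLC1A5 had levels of 1.79, 2.61, 2.04 and 3.17 at day +15, against 0.06, -0.97, 0.20 and -0.39 at day -30, and differed by 2.68 ± 0.85 (adjusted p = 0.0293). SLC7A10 had -2.72, -1.73, -3.11 and -2.04 at day +15, against -4.28, -5.18, -4.65 and -5.71 at day -30, and differed by 2.55 ± 0.79 (adjusted p = 0.0269). No array of day +15 lay as low as any array of day -30 in either gene. SLC1A4 differed by 1.69 (adjusted p = 0.0208), SLC7A1 by 1.57 (adjusted p = 0.0427) and SLC38A2 by 1.00 (adjusted p = 0.0392). SLC7A4 stood at 2.81 ± 0.881 at day +15, against 0.26 ± 0.878 at day -30, without passing. Without any 1 animal SLC1A5, SLC7A1 and SLC38A2 lost these calls, as did SLC7A10 without animal 2 or 4 and SLC1A4 without animal 2, 3 or 4. With the days of the scanner files 0 of the 29 genes passed at day +15 and 6 passed at day +30. Over all 20110 genes, 250 and 3896 were called at these days, against 3609 and 1282 by the table's days.

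**Figure D3:**
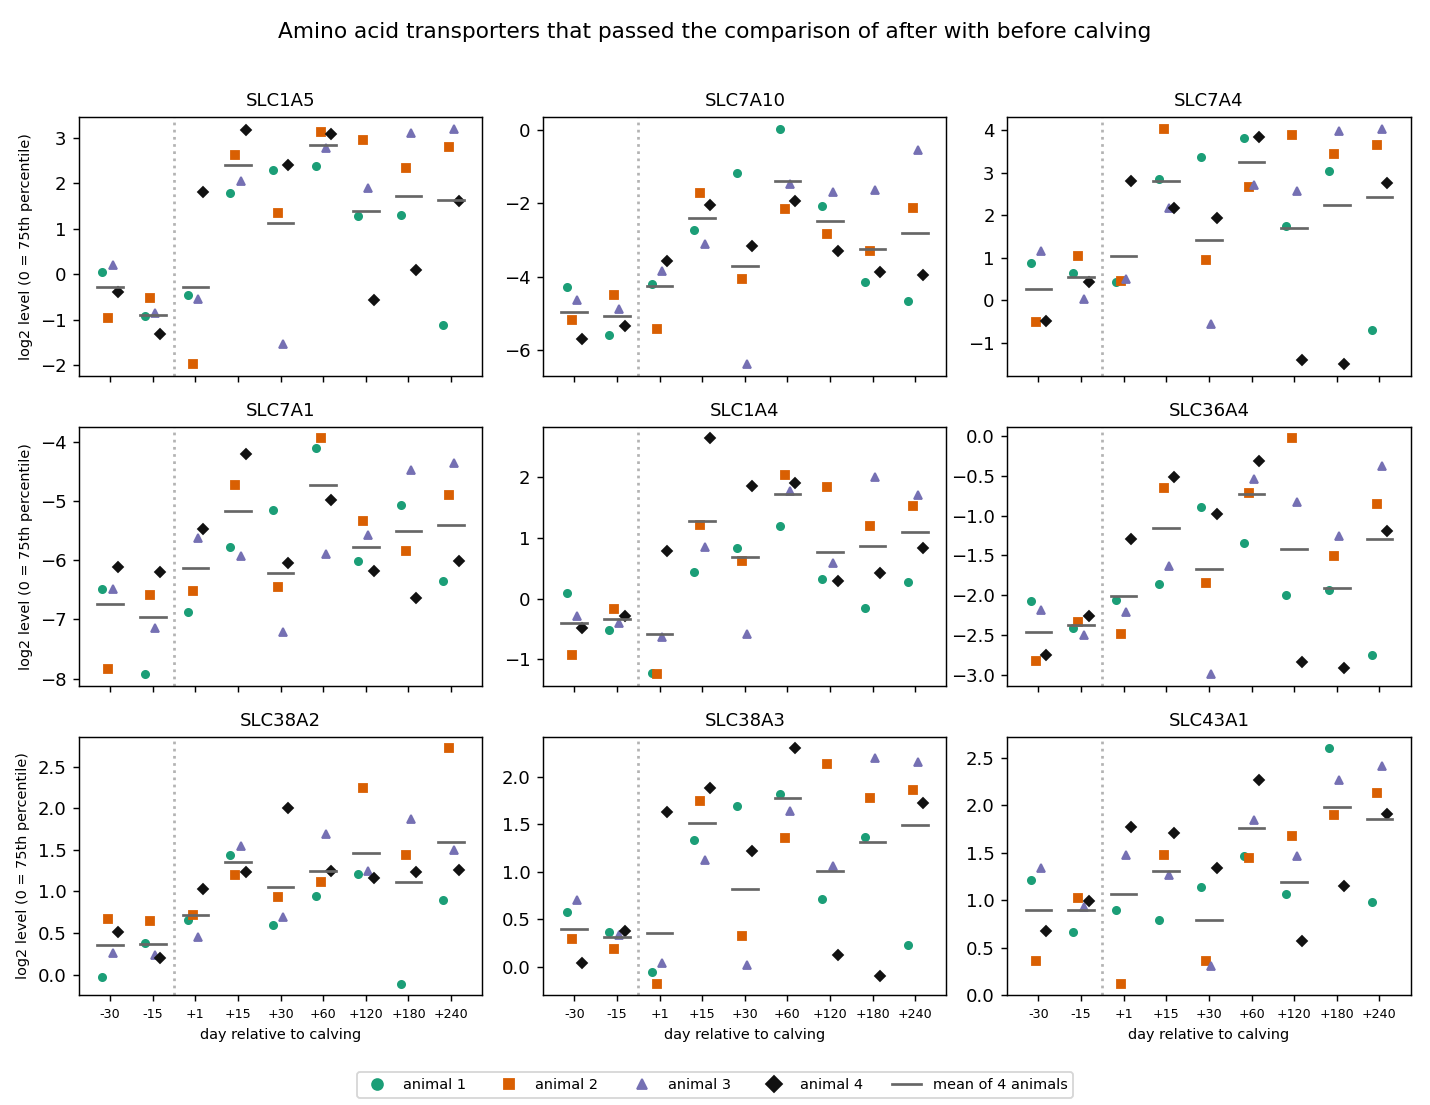
Log2 level on every array of the 9 genes that passed between the stages, by day relative to calving, with 1 symbol per animal and a bar for the mean of the 4 animals. The dotted line separates the days before from the days after calving. The means of SLC7A10 and SLC1A5 are highest at day +60, and animals diverge widely at days +30, +120, +180 and +240.

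By the table's days the calls after day +60 were 0 at day +120, 4 at day +180 and 2 at day +240. Without the 2 arrays low in milk protein (animal 4 at days +120 and +180) they were 3, 10 and 4. Over all genes, leaving out these arrays raised the share called between the stages from 36% to 43%. The shares at single days are not given for that setting, so its counts are not read as a trait of the transporters. At day +240 SLC38A2 had levels of 0.89, 2.72, 1.5 and 1.26, against -0.03, 0.67, 0.26 and 0.51 at day -30, and differed by 1.24 ± 0.34 (adjusted p = 0.017). SLC1A4 had 0.28, 1.53, 1.71 and 0.84 at day +240, against 0.09, -0.93, -0.28 and -0.49 at day -30, and differed by 1.49 ± 0.49 (adjusted p = 0.0414). Neither passed with the days of the scanner files, at 0.10 and 0.33, or without animal 2, at 0.97 and 1.17, or without animal 3, at 1.24 and 1.33.

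At day +180 the heavy chain SLC3A2 averaged 1.25 ± 0.529, against 0.26 ± 0.214 at day -30 (SD, n = 4 arrays each), a difference of 0.99 (limma adjusted p = 0.0242). SLC43A1 had levels of 2.60, 1.90, 2.27 and 1.15 at day +180, against 1.21, 0.36, 1.34 and 0.68 at day -30, and differed by 1.08 ± 0.35 (adjusted p = 0.0315). SLC7A6 and SLC7A9 were lower at day +180, SLC7A6 by the probe in use. The SLC7A6 probes differed in direction between the stages, as given above, and were not tested separately at this day. SLC7A6 averaged -6.84 ± 1.10, against -5.26 ± 0.4 at day -30, but cleared the background on 1 of 4 arrays of day +180 and 4 of 4 of day -30 (limma adjusted p = 0.0268), and its difference of -1.58 turned to 0.01 with normexp. SLC7A9 was not well above background on any array of day +180, so that its measured mean of -6.96, against -5.04 at day -30, is given as at least 1.44-fold lower (adjusted p = 0.0388, and 0.0585 without the 2 arrays low in milk protein). For a probe below background on all arrays of a day, the level there was set to the higher of its own value and the lowest signal well above background on that array. None of the 4 genes called at day +180 passed with normexp or without animal 1, 2 or 3. With the days of the scanner files 1 of the 29 passed, with no count over all genes beside it.

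A few arrays after calving stood apart from the rest of their day, low both in the milk protein genes and in most of the transporters that rose. The 6 milk protein genes (CSN1S1, CSN1S2, CSN2, CSN3, LALBA and PAEP) had a mean log2 level of -0.08 to 8.5 after calving, against 3.54 to 5.08 before calving. On the arrays named animal 4 at day +120 and day +180 that mean was 0.04 and -0.08, below every array before calving, and brightness there was 6450 and 4357. The mean of the 9 leukocyte markers was 1.18 and 1.26 on these arrays, above the highest of the other arrays, at 0.85, and that of the luminal markers was 2.45 on both. The part of leukocytes in the levels of these arrays was not tested. SLC7A4 had -1.40 and -1.5 on these arrays, against 1.75 to 3.88 and 3.03 to 3.98 in the other 3 animals at the same days. SLC1A5 had -0.57 and 0.09 there, against 1.29 to 2.95 and 1.30 to 3.11 in the other animals, and SLC7A5 had -1.11 and 0.13, against 1.48 to 3.00 and 0.67 to 2.92.

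SLC38A2 was within or near the range of the other animals, with 1.16 and 1.23 on these arrays, against 1.21 to 2.24 and -0.11 to 1.87 in the other animals. SLC7A6, SLC7A7, SLC38A9, SLC38A11 and SLC43A2 were higher there than in all of the other animals on both days, SLC7A7 for example at 0.21 and 0.84, against -1.40 to 0.00 and -0.73 to 0.27. SLC38A11 was highest in animal 4 at days -15, +1, +15 and +240 too, so its place is not particular to these arrays. At days -30, +30 and +60 it was highest in animal 1. Without the 2 arrays, left out once the values had been seen, 12 transporters rose and 3 fell between the stages, where 43% of all genes were called. Those added as higher were SLC3A2 (0.44), SLC7A5 (1.00) and SLC7A6OS (0.27), and those lower were SLC38A9 (-0.29), SLC43A3 (-0.77) and SLC7A6 (-0.66).

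**Figure D4:**
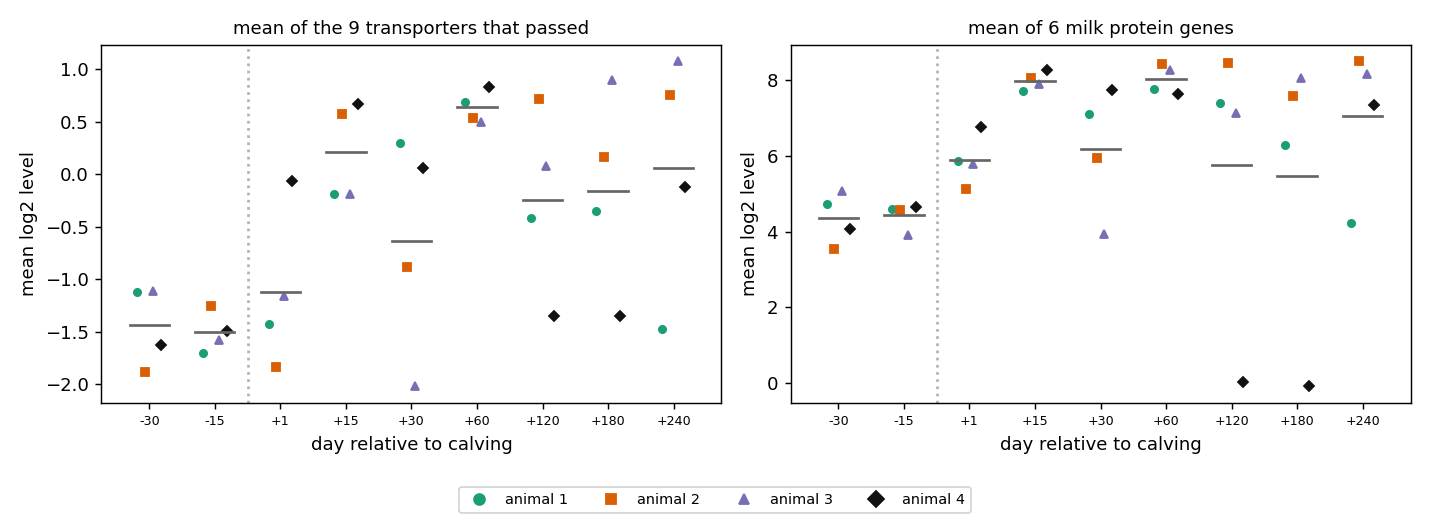
Mean log2 level on every array of the 9 transporters that passed between the stages (left) and of the 6 milk protein genes (right), by day relative to calving, with 1 symbol per animal and a bar for the mean of the 4 animals. Animal 4 at days +120 and +180 stands at -1.35 on both days on the left and at 0.04 and -0.08 on the right. The 9 genes were chosen by the comparison of stages, so the left panel is a description.

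Brightness moved with the same genes. Among the arrays after calving, the 4 of day +60 had brightness values of 2512, 1339, 1278 and 1448, and animal 3 at day +30 had 5698. On that last array the mean of the 9 transporters was -2.02, below every array before calving, and the milk protein mean was 3.94. Because the setting to the 75th percentile fixes each array's level, a difference is relative to the genes around that percentile. Brightness and stage of lactation go together on these arrays, and the part of each was not tested beyond the fit with brightness as a covariate.

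None of the other amino acid and peptide carriers passed as higher. Of 12 carriers outside these families that are in the table, 0 were higher and 2 were lower after calving, with a median difference of -0.20, against -0.04 over all genes. That is 0% and 16.7%, beside 16.8% higher and 19.2% lower over all genes, and with the slide as random block 1 was lower. SLC6A14, a concentrating carrier of neutral and cationic amino acids, fell by 2.42 on the log2 scale (SE 0.45, adjusted p = 0.000147, and 0.00858 with the slide as random block). SLC25A13, the mitochondrial carrier of aspartate and glutamate, fell by 0.37 (adjusted p = 0.0463) and did not pass with the slide as random block (adjusted p = 0.195). By the scanner files' days 1 of the 12 was higher and 2 were lower.

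The genes of the amino acid starvation response changed mostly upward. Of 13 measured, 8 were higher and 2 lower after calving, with a median of 0.83, and 7 higher and 2 lower passed with the slide as random block. These are 61.5% and 15.4%, beside 16.8% and 19.2% of all genes. This list and the other pathway lists were written with results of these data in view, so the shares are a description. No counts with array brightness as a covariate are given for the lists. ATF4, the transcription factor at the centre of that response, rose by 1.20 (adjusted p = 0.000473), and TRIB3, one of its targets, by 2.51 (adjusted p = 2.73e-05). EIF2AK4, the kinase that senses uncharged transfer RNA, fell by 0.69 (adjusted p = 4.1e-05), and SESN2 was lower as well (-1.05, adjusted p = 0.00106). ASNS, which makes asparagine, differed by 0.50 without passing (adjusted p = 0.26). SESN2 is also counted among the mTORC1 genes below, and ASNS among those of amino acid synthesis. By the scanner files' days 6 were higher and 2 lower.

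The genes through which mTORC1 senses amino acids showed no common direction. Of 25 measured, 4 were higher and 5 lower, with a median of 0.01. At 16% and 20% these shares were near those of all genes, 16.8% and 19.2%, and with the slide as random block 1 was higher and 3 were lower. LAMTOR2 (0.84), SAR1B (0.99), RHEB (0.56) and RRAGA (0.39) were higher. SESN2 (-1.05), RRAGB (-0.69), MLST8 (-0.56), DEPDC5 (-0.47) and RRAGC (-0.26) were lower.

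Amino acid metabolism also changed in both directions. Of 17 genes of breakdown 6 were higher and 3 lower, among them ARG2, an arginase (2.5, adjusted p = 1.96e-06), and BCAT2, which removes the amino group of leucine, isoleucine and valine (1.55, adjusted p = 0.000252), both higher, and TAT, the tyrosine aminotransferase (-0.80, adjusted p = 1.86e-05), lower. Of 18 genes that make non-essential amino acids 4 were higher and 2 lower, with ASL of arginine synthesis at 1.47 (adjusted p = 2.31e-05) and CTH of cysteine synthesis at -1.66 (adjusted p = 8.91e-05). Of 10 genes of glutathione and the gamma-glutamyl cycle 0 were higher and 1 lower. The shares were 35.3% higher and 17.6% lower for breakdown and 22.2% and 11.1% for synthesis, beside 16.8% and 19.2% of all genes. With the slide as random block 4 genes of breakdown were higher and 1 lower, 1 of synthesis was higher and 1 lower, and 0 of the glutathione genes passed.

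The markers of cell types measured on the same arrays changed in part. Of the 8 luminal markers 2 rose (KRT19 by 0.98 and ELF5 by 0.92), and the list's mean level ran from 2.14 to 4.03 after calving, against 2.40 to 3.01 before it. Of 7 myoepithelial markers 4 were higher and 1 lower, of 7 endothelial markers 3 were higher, of 6 fibroblast markers 0 changed, and of 9 leukocyte markers 1 was higher and 3 were lower. All 4 measured genes of cell division were lower, with a median of -2.72. Over all genes 16.8% were higher and 19.2% lower. With the slide as random block 1 luminal marker was higher and ELF5 did not pass (adjusted p = 0.212), 3 myoepithelial, 2 endothelial and 1 adipocyte marker were higher, 2 leukocyte and 1 adipocyte marker were lower, and the 4 genes of cell division passed as lower. The part of cell makeup in the transporter differences was not tested.

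The 9 genes by symbol that are on the array and not in the table were rarely above background. They are SLC1A6, SLC7A3, SLC7A8, SLC7A11, SLC7A13, SLC7A14, SLC36A3, SLC38A1 and SLC38A4. Their probes were above background on 1 to 12 of the 36 arrays, with SLC7A8, a partner of SLC3A2 that carries neutral amino acids, on 12, and SLC7A11, the cystine and glutamate exchanger, on 8. Every probe in the table was above background on at least 18 arrays. Of the 29, SLC36A2 and SLC7A2 were at that lowest number, and 20 were above background on all 36 arrays.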

How the data were processed

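Per the file headers, the scanner files were made with Feature Extraction 10.7.3.1 and give processed signals in intensity units, with quality marks of 0 or 1 as another unit in the deposited columns. The authors deposited a table of log2 values, per the labels made in GeneSpring (each array's 75th percentile is 0 in it), for 34997 of 43653 probes. Each column of it equals 1 scanner file on 100.0% of its probes within 0.001, and that file gave the detection, slide and brightness of the column. Probe positions on UMD 3.1 are those of the file headers.

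From the table, the probe with the highest mean over the 36 columns stood for each gene symbol, with no further filter. Differences were fitted with limma 3.58.1, run in R 4.3.3 with statmod 1.5.0 and, for reading files, the package data.table (version 1.17.8). Day was the fixed effect, and animals were a random block with a consensus correlation of 0.0531. Two-sided p-values were adjusted (Benjamini-Hochberg) over 20110 genes in each comparison and called at an adjusted p under 0.05. Standard errors rest on 1 spread per gene over all 36 arrays. The number of arrays limits the precision: 4 against 4 arrays allow 35 splits. All 29 symbols are also in the yak gene table of RefSeq. Python 3.11.15 with pandas 2.3.3, numpy 2.4.6 and matplotlib 3.10.9 served for tables and plots.

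Members are all genes of the table whose symbol begins with SLC1A, SLC3A, SLC7A, SLC36A, SLC38A or SLC43A and a number. Values of every array or their range are given for genes called between the stages or at 2 or more days. The others are given by their difference and its standard error, some of them also by mean, range or detection. The members and lists were chosen with earlier results of these data known. Alternatives were other models, probe rules, background corrections and scalings, each animal left out, slide or brightness in the fit, the days of the scanner files, and the fit of 8 arrays only. The pairing by animal comes from the sample names: deviations from the day means had a mean r of 0.156 within an animal and of -0.0523 between animals, and position on the slide goes with the animal. On simulated data (20110 genes, day +60 against day -30) the fit recovered 39 of 100 genes changed by 1 and 79 of 100 changed by 2 on the log2 scale, and called 3 of 19910 unchanged ones. The simulated noise was normal, with 1 spread per gene on all days and no slide effect. Few genes were changed there, so these counts do not give the rate of false calls in the data.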

Additional observations from a re-analysis of the deposited data

Results flagged for a closer look

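Of 81 groups of 4 arrays, 9 days for each of the 9 transporters that rose after calving, 3 held 1 array far from the others, with a gap to its neighbour above Dixon's 95% limit for 4 values. Chance gives about 1 in 20 such groups. SLC38A2 at day +120 stood at 2.24 in animal 2, against 1.16 to 1.25 in the other animals. SLC38A3 at day +1 stood at 1.63 in animal 4, against -0.18 to 0.04 in the others. SLC7A4 at day +1 stood at 2.81 in animal 4, against 0.43 to 0.50 in the others. That same array of animal 4 at day +1 had a milk protein mean of 6.76 and a brightness of 2084, against 5.12 to 5.87 and 3795 to 5355 in the other animals of that day. By the scanner files this array is of day +1 too, whereas those of animals 1, 2 and 3 are of day -15.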

How the results depend on the processing

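The filter on dim probes kept all 42 called results for single genes, the model without a replicate block kept 36, and the ordinary model kept 35. Brightness as a covariate kept 5, ended 28 and turned 9. Without the block by animal, the counts were 10 in the F test, 9 between the stages and 4, 8, 4 and 1 at days +15, +60, +180 and +240, and the pairing changed no count elsewhere. The ordinary model also gave 1 at day +240. With slide as a random block 4 transporters were called between the stages.

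With the days of the scanner files 7 passed the F test, and 0, 6, 4, 1 and 0 passed at days +15, +30, +60, +180 and +240. With brightness as a covariate 4, 0, 3, 5, 1 and 4 passed at days +1, +15, +30, +60, +120 and +240. It turned SLC1A5 at day +15 (-0.28), SLC36A4, SLC38A3, SLC43A1 and SLC7A4 between the stages (-0.28, -0.25, -0.18 and -0.51), and SLC36A4, SLC38A3, SLC7A4 and SLC7A5 at day +60 (-0.12, -0.22, -0.35 and -0.34). The cause of these changes was not tested. For the scanner files' days and for brightness, counts over all genes are given below only for the F test, the stages and day +60. Those at days +15 and +30 with the scanner files' days are given above. With normexp 6 passed the F test, 0 at day +180 and 1 at day +240, and SLC43A3 at day +60 (0.27) and SLC7A6 at day +180 (0.01) turned. Quantile normalization gave 8, 2, 2 and 4 at days +15, +120, +180 and +240, and the mean of all probes 2 and 0 at days +180 and +240. The fit of the 8 compared arrays gave 2, 11, 1 and 1 at days +1, +15, +120 and +240. Over all genes, quantile normalization called 3652 and 1204 at days +15 and +120, against 3609 and 756. The fit of the 8 compared arrays called 3569 and 5122 of all genes at days +1 and +15, against 1255 and 3609.

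Without the 2 arrays low in milk protein, an alternative added after seeing the data, 15 passed between the stages, where 43% of all genes were called. At days +15, +120, +180 and +240 the counts were 9, 3, 10 and 4, with no share over all genes beside them. Leaving out each animal in turn gave 0 to 11 in the F test, 5 to 9 between the stages, 0 to 2 at day +15, 2 to 6 at day +60, 0 to 7 at day +180 and 0 to 5 at day +240, with fewer arrays in each fit. The count was 0 without animal 2 in the F test and at days +15, +180 and +240. Slide as a fixed effect was not run, because each slide holds 1 day. Over all genes, 8500, 7246 and 5892 were called in the F test, between the stages and at day +60, against 4370, 4443 and 1703 with the days of the scanner files and 8115, 4680 and 2784 with brightness as a covariate, and 2715 between the stages with slide as random block. With normexp 4638 passed the F test and 641, 578, 417, 1457 and 1218 were called at days +1, +30, +120, +180 and +240, against 1255, 1282, 756, 3509 and 2803. Without 1 animal 2116 to 6324 passed the F test, 4267 to 5889 were called between the stages and 2615 to 4235 at day +60. Dim probes, such as SLC7A1, SLC7A2, SLC36A2 and SLC7A9, limit what can be read from their low values.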
